A study of Mus musculus with 6 samples.

Results

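Adrenergic receptors are the cell-surface receptors of noradrenaline and adrenaline, and 8 of their genes were followed here in astrocytes from normoglycemic and hyperglycemic mouse brain: Adra1a, Adra1b, Adra1d, Adra2a, Adra2b, Adra2c, Adrb1 and Adrb3. They were taken by gene symbol from the 45777 genes of the deposited expression table. The family was chosen by its read counts in this same comparison of hyperglycemic and control astrocytes, which were already known. Its members' values are therefore a description, no p-value is printed for a member, and nothing is read from the calls given below. The highest-expressed member, Adra2a, had 1.87-fold fewer normalized reads in astrocytes from hyperglycemic mice. Adrb1 had 1.58-fold fewer and Adra1b 1.54-fold fewer. Adra1a and Adra2c overlapped between the groups, Adrb3 had a higher mean with wide spread, and Adra1d and Adra2b were close to undetected.

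The cells came from male Aldh1l1 CreERT2; tdTomato fl/fl mice on a C57BL/6 background, although the sample labels give the genotype as WT. Tamoxifen (75 mg/kg for 5 days), given to both groups, switched on tdTomato in cells using the Aldh1l1 promoter, which marks astrocytes but need not mark them alone. At 8 weeks of age the mice of one group received streptozotocin (STZ, 150 mg/kg), a toxin of insulin-producing beta cells, and those of the other received the citrate buffer vehicle. TdTomato-positive cells were sorted 21 days later, and cells of 3 brains were pooled for each sample, giving 3 vehicle and 3 STZ samples of polyA RNA. Each p-value or spread below is therefore one between pools of mice.

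Noradrenaline reaches astrocytes mainly from the fibers of locus coeruleus neurons. The receptors fall into classes by the G protein they engage. The alpha1 receptors act through Gq, phospholipase C and release of stored calcium, the alpha2 receptors through Gi, which lowers cyclic AMP (cAMP), and the beta receptors through Gs, which raises it. In astrocytes these routes are known for calcium waves during arousal and for control of glycogen use.

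The 6 libraries held between 52529048 and 58749115 counts. Of the 45777 genes, 22337 had a count in every sample and were tested with edgeR. The astrocyte markers Aldh1l1, Aqp4, Slc1a2, Slc1a3, Gja1 and Aldoc together had 5275 to 6143 FPKM with vehicle and 5378 to 5979 FPKM with STZ. Of the 6, 5 had a negative log2 fold change (median of the list -0.17). Aldh1l1 (137 to 152 FPKM with vehicle, 116 to 134 with STZ) and Aqp4 (190 to 231 and 140 to 167) were lower in STZ without overlap. Aldoc (2027 to 2312 and 2333 to 2585) was higher without overlap. Oligodendrocyte markers summed to 180 to 550 FPKM with vehicle and 207 to 828 FPKM with STZ, and microglia markers to 109 to 165 and 107 to 160. Of 3 defining genes of noradrenergic neurons, Dbh and Slc6a2 were close to absent, at 0 in 5 of 6 samples. Th was at 0 in 1 sample only, with 128 counts in all and a mean of 0.194 FPKM. Choroid plexus and ependymal markers were abundant, with summed FPKM from 4239 in vehicle replicate 1 to 12764 in vehicle replicate 3, so that vehicle replicate 1 stood apart from the other vehicle samples.

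The promoters of Adra2a and Adrb1 are shown because these members had the most negative fold changes, and both lie on chromosome 19, with 2.67 Mb between them. Each line gives the 250 bases before the annotated start in RefSeq for GRCm38.p6, on the plus strand, at chr19:54045009-54045258 for Adra2a and chr19:56721867-56722116 for Adrb1. Capitals mark the letters TGACG, the core of a cAMP response element, and TATAAA, the letters known to bind the TATA-binding protein.
Adra2a: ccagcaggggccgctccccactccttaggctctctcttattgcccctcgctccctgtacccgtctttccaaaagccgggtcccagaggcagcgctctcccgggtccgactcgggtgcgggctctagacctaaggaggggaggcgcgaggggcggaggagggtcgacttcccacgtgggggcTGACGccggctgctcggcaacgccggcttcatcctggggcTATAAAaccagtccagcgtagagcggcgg
Adrb1: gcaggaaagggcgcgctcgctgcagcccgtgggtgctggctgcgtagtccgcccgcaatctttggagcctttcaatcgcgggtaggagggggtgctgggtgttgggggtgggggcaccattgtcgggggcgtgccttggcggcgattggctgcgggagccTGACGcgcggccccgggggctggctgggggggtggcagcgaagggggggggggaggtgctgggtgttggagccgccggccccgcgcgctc

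TGACG began 69 bases before the start of Adra2a and 90 bases before that of Adrb1, and TATAAA began 29 bases before the start of Adra2a. Both promoters were rich in G and C, at 67.6% and 74.0%, where the median of 32841 promoters was 52.4%. Searched on both strands in the same 250 bases, TGACG was found in 17.8% of all promoters, the full element TGACGTCA, which contains it, in 1.55%, and TATAAA in 12.4%. Promoters were listed for 5 of the 8 members, as 6 windows. The share of G and C was 66.0% for Adra2b, 53.6% for Adra2c, and 41.6% and 72.8% in the windows of Adra1b, so richness was not particular to Adra2a and Adrb1. TGACG was in those of Adra2a and Adrb1 and not in those of Adra1b, Adra2b and Adra2c. AGAACA, the core of a glucocorticoid response element, was in 16.1% of all promoters and in none of the 6 windows. CCAAT, found in 33.9% of all promoters, was in windows of Adra1b, Adra2b, Adra2c and Adrb1, and GGGCGG, found in 32.7%, in windows of Adra1b, Adra2a, Adra2b and Adrb1. The motifs were picked after the read counts were known, and a match of letters is not a site in use.

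Compared per transcript length, in FPKM, Adra2a was the leading member with 13.0 ± 4.21 (SD, n = 6 samples). Adrb1 followed with 4.09 ± 1.15, Adra1b with 3.23 ± 0.745 and Adra1a with 1.84 ± 0.347 FPKM (SD, n = 6). Each of these was above the next in 6 of 6 samples, and neighbouring genes did not overlap within either group. Adrb3 (0.220 ± 0.122 FPKM) and Adra2c (0.206 ± 0.0231 FPKM) came next, Adrb3 8.35-fold below Adra1a in mean, and could not be ordered, since Adrb3 was the higher in 4 of 6 samples and their ranges overlapped in both groups. Adra2b, at 0.0122 FPKM, and Adra1d, at 0.00206 FPKM, came last. Dividing counts by the longest annotated transcript in place of FPKM put Adra1a second, at 4.68 normalized CPM per kb against 4.50 for Adrb1 and 3.34 for Adra1b, so the order of these 3 genes depended on the transcript length used. Adra2a stayed first, at 14.4.

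Set among 29 genes of dopamine, serotonin, histamine, muscarinic and trace amine receptors, Adra2a, Adrb1 and Adra1b held ranks 2, 3 and 4 of 37 by mean FPKM. Rank 1 was the histamine receptor Hrh1, at 35.2 ± 5.48 FPKM (SD, n = 6), and the serotonin receptors Htr2c (2.83 FPKM), Htr6 (2.37 FPKM) and Htr5b (2.33 FPKM) came between Adra1b and Adra1a. Htr2c had 8.99, 20.9 and 18.4 normalized CPM in vehicle replicates 1, 2 and 3 and 13.8, 9.64 and 14.2 in the STZ replicates. Like the summed choroid plexus and ependymal markers, it was lowest in vehicle replicate 1 and STZ replicate 2 of their groups. The part of such cells in its level was not tested. Of the 29, 13 had a count in every sample, against 6 of the 8 adrenergic receptor genes.

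**Figure D1:**
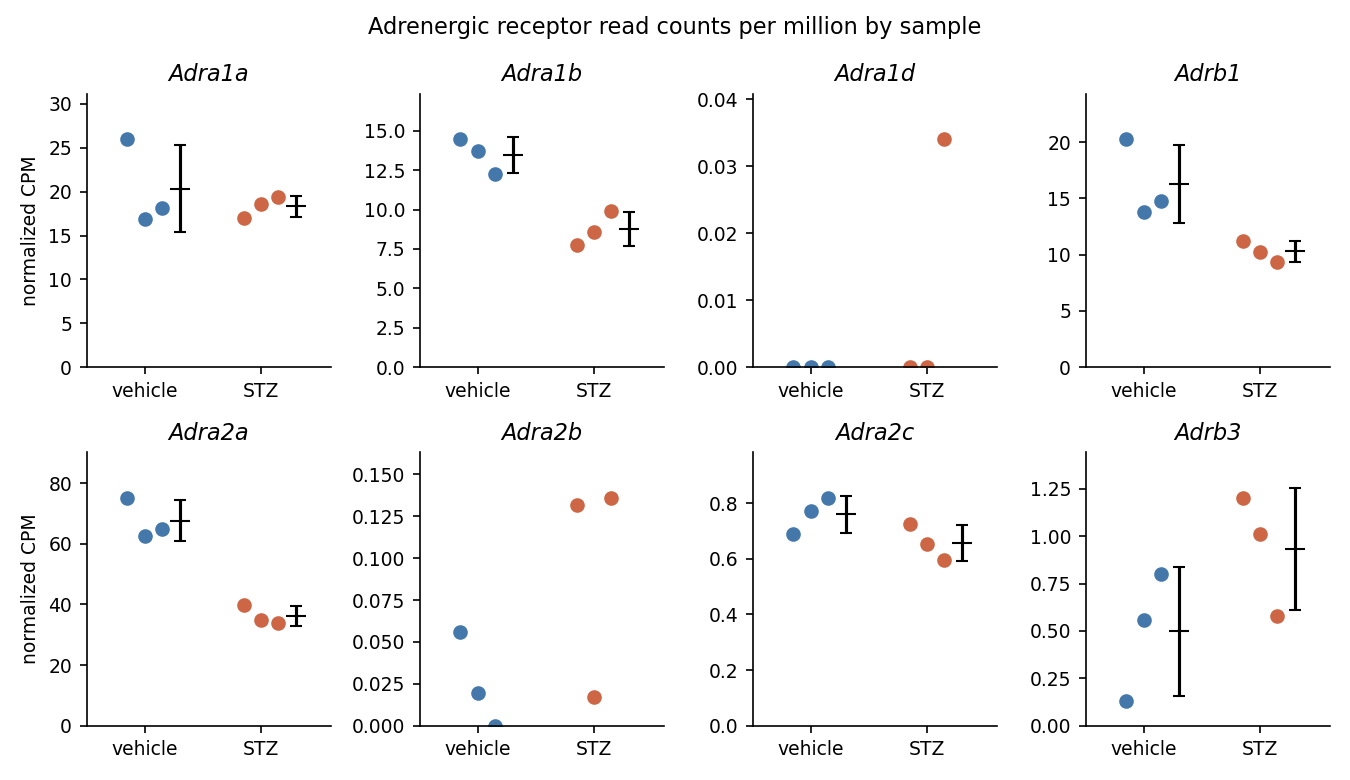
TMM-scaled read counts (vertical axis, normalized CPM, from 0) for the 8 members in 3 vehicle (blue) and 3 STZ (orange) samples, with the mean and SD beside the points except for Adra1d and Adra2b, whose counts were too low. The vehicle and STZ points do not overlap for Adra2a, Adrb1 and Adra1b and overlap for the others, and vehicle replicate 1 is the highest point for Adra1a, Adra1b, Adra2a and Adrb1.

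Of the 8 members, 6 had a count in every sample and entered the test across genes. The log2 fold change, STZ over vehicle, was negative for 5 of them and positive for 1, with a median of -0.41, where the median over all 22337 genes was 0.01 and 48.1% of genes were negative. The vehicle and STZ samples did not overlap for 3 of the 6, all lower in STZ, where 9.85% of all tested genes were lower and 8.64% higher without overlap. A gene was called where its adjusted p was below 0.05 and it differed by more than 1.5-fold. The quasi-likelihood test of edgeR called 0 of the 6 members, and 0.0224% of all genes, 0.0134% as lower and 0.00895% as higher in STZ. Without adjustment, 3 members were lower at p under 0.05, where 5.65% of all genes were. DESeq2, the tool of the study's methods, called 3 members as lower, Adra2a, Adrb1 and Adra1b, where it called 1.05% of all genes, 0.394% as lower and 0.654% as higher. With 1 sample left out in turn, DESeq2 called Adra2a each time, but 1 member only without vehicle replicate 1, STZ replicate 1 or STZ replicate 2. As the family was chosen with this comparison known, nothing is read from these shares. In bulk samples such as these, fewer cells of a type and less RNA per cell cannot be told apart.

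Adra2a (NCBI gene 11551, chromosome 19, 54045259 to 54048982) encodes the alpha2A receptor, which signals through Gi and is also known as the autoreceptor of noradrenergic neurons. It had 75.2, 62.6 and 64.8 normalized CPM in vehicle replicates 1, 2 and 3 and 39.9, 34.7 and 33.9 in STZ replicates 1, 2 and 3. Every STZ sample was below every vehicle sample, with a gap wider than the range within either group. The means were 67.5 ± 6.75 and 36.2 ± 3.24 (SD, n = 3 per group), with -0.90 ± 0.101 (SE) as the log2 fold change. With each sample left out in turn it stayed between -0.98 and -0.82. Of all 22337 tested genes, 298 had a more negative log2 fold change. Of the 5006 with a mean FPKM at least as high as that of Adra2a, itself included, 2 did. The family was chosen with these counts known, so nothing is read from these ranks. Per 100 FPKM of the astrocyte markers Aldh1l1, Slc1a3 or Gja1, Adra2a was lower in STZ without overlap, and so were Adrb1 and Adra1b. Per 100 FPKM of Aldh1l1 there were 11.3 to 12.2 FPKM of Adra2a with vehicle and 6.84 to 7.72 with STZ. Per 100 FPKM of Slc1a3, the glutamate transporter GLAST, there were 1.15 to 1.28 and 0.631 to 0.775. These ratios come from the same samples that chose the family, and the part of astrocyte content in the difference was not tested.

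Its relatives in the alpha2 class were scarce. Adra2c (NCBI gene 11553, chromosome 5, 35278566 to 35281763), the alpha2C receptor, had 37, 40 and 47 counts with vehicle and 44, 38 and 35 with STZ. The groups overlapped, with means of 0.760 ± 0.0658 and 0.658 ± 0.0651 normalized CPM (SD, n = 3), with -0.21 ± 0.246 (SE) as the log2 fold change. Adra2b (NCBI gene 11552, chromosome 2, 127363179 to 127367221), the alpha2B receptor, had 3, 1 and 0 counts with vehicle and 8, 1 and 8 with STZ, in all 4 and 17. Its STZ replicate 2 lay within the vehicle range, it was not tested because of the sample at 0, and no fold is given.

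Adrb1 (NCBI gene 11554, chromosome 19, 56722117 to 56725150) encodes the beta1 receptor, which raises cAMP through Gs. Its normalized CPM was 20.3, 13.8 and 14.8 in vehicle replicates 1, 2 and 3 and 11.2, 10.3 and 9.33 in the STZ replicates. The groups did not overlap, but the highest STZ and the lowest vehicle sample lay closer together than for Adra2a, and vehicle replicate 1 was well above the other vehicle samples. The means were 16.3 ± 3.50 and 10.3 ± 0.959 (SD, n = 3), with -0.66 ± 0.172 (SE) as the log2 fold change, and -0.48 without vehicle replicate 1.

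Adrb3 (NCBI gene 11556, chromosome 8, 27225776 to 27230845) encodes the beta3 receptor, best known from fat cells. It had 7, 29 and 46 counts in vehicle replicates 1, 2 and 3 and 73, 59 and 34 in STZ replicates 1, 2 and 3. STZ replicate 3 lay between vehicle replicates 2 and 3, so the groups overlapped. The means were 0.497 ± 0.340 and 0.932 ± 0.320 normalized CPM (SD, n = 3), with 0.90 ± 0.578 (SE) as the log2 fold change, which was 0.45 without vehicle replicate 1 and 1.43 without vehicle replicate 3. An annotated antisense gene overlaps Adrb3, but it had 5 counts in STZ replicate 1 and 0 elsewhere.

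The samples kept the same order in Adrb3 as in endothelial markers, a likeness noticed after the values were seen. The summed FPKM of Pecam1, Cldn5, Icam2, Nostrin, Flt1 and Tie1 was 14.2, 18.7 and 48.2 in vehicle replicates 1, 2 and 3 and 87.9, 67.7 and 42.2 in STZ replicates 1, 2 and 3. All 6 markers had a positive log2 fold change, with a median of 1.14, and 5 had an unadjusted edgeR p under 0.05 while edgeR called 0 and DESeq2 1. The pericyte and smooth muscle markers summed to 22.1 to 28.8 FPKM with vehicle and 37.9 to 48.9 FPKM with STZ, without overlap. Of these 7, 6 were higher in STZ, and edgeR called 0 and DESeq2 4. Of all genes, 11.3% had an unadjusted edgeR p under 0.05, edgeR called 0.0224% and DESeq2 1.05%. The part of endothelial, pericyte and smooth muscle cells in the values of Adrb3, or of any other member, was not tested.

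Adra1b (NCBI gene 11548, chromosome 11, 43774605 to 43901250) encodes the alpha1B receptor, coupled to Gq. It had 14.5, 13.7 and 12.3 normalized CPM in vehicle replicates 1, 2 and 3 and 7.78, 8.61 and 9.94 in the STZ replicates. All STZ samples were below all vehicle samples. The means were 13.5 ± 1.13 and 8.78 ± 1.09 (SD, n = 3), with -0.62 ± 0.143 (SE) as the log2 fold change, between -0.72 and -0.54 with a sample left out.

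Adra1a (NCBI gene 11549, chromosome 14, 66635251 to 66771240), the alpha1A receptor, couples to Gq as Adra1b does. It had 26.0, 16.9 and 18.1 normalized CPM with vehicle and 17.1, 18.6 and 19.4 with STZ. Apart from vehicle replicate 1, the samples of both groups lay in the same narrow range. The log2 fold change was -0.15 (standard error 0.169) and turned to 0.06 without vehicle replicate 1. Adra1d (NCBI gene 11550, chromosome 2, 131545357 to 131562497), the alpha1D receptor, had 2 counts in STZ replicate 3 and 0 in the other samples. At this depth a count of 0 allows up to 3 counts, or 0.0511 to 0.0571 CPM, in a library.

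**Figure D2:**
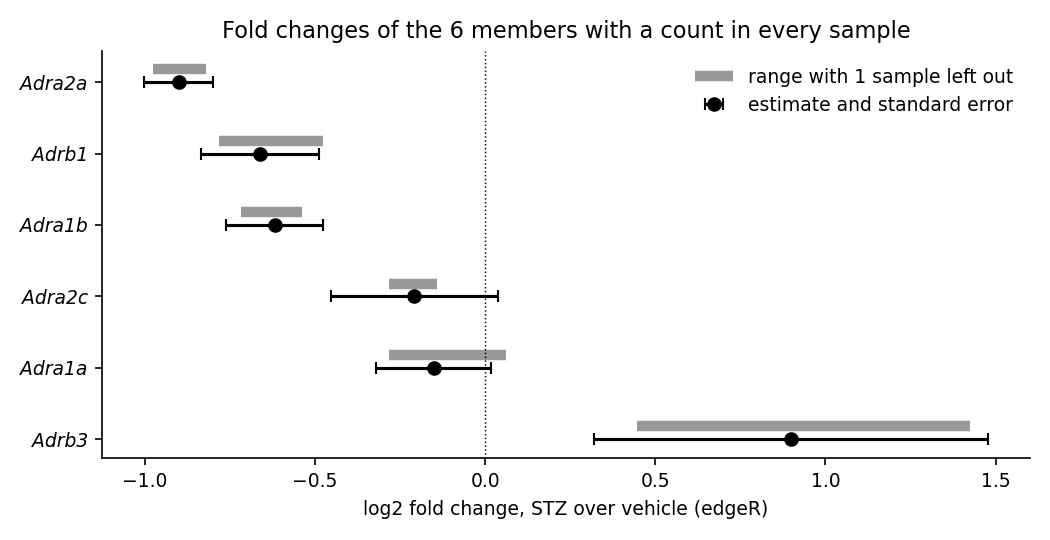
Log2 fold change, STZ over vehicle (horizontal axis), of the 6 members with a count in every sample, as points with standard errors from edgeR (n = 3 per group). Gray bars give the range with 1 sample left out in turn: those of Adra2a (-0.98 to -0.82), Adrb1 (-0.78 to -0.48) and Adra1b (-0.72 to -0.54) lie below 0, and that of Adra1a crosses 0.

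Summed over the 8 genes, adrenergic receptor FPKM was 31.5, 25.7 and 26.4 in vehicle replicates 1, 2 and 3 and 18.5, 17.0 and 16.5 in the STZ replicates. The groups did not overlap, and the STZ mean was 0.622 of the vehicle mean. Adra2a made up 58.7% to 60.7% of it with vehicle and 52.4% to 56.0% with STZ, and Adra1a 6.41% to 7.95% and 8.50% to 10.2%, each without overlap. The share of Adrb3 was 0.135% to 0.901% with vehicle and 1.07% to 2.095% with STZ, also without overlap. The share of Adrb1 overlapped, at 16.3% to 19.4% and 17.7% to 19.4%, as did that of Adra1b, at 13.1% to 15.4% and 12.7% to 17.3%. The ratio of Adra2a to Adra1a FPKM was 8.43 ± 1.02 in vehicle and 5.66 ± 0.808 in STZ samples (SD, n = 3), ranging from 7.39 to 9.43 and from 5.12 to 6.59. The ratio of Adra2a to Adra1b, the more abundant of the Gq-coupled members, overlapped between the groups, at 3.93 to 4.55 and 3.02 to 4.42. The ratio of Adrb1 to Adra1b was 1.27 ± 0.209 and 1.27 ± 0.254. Shares are fractions of a sum that itself differed between the groups, so a higher share of Adra1a is not a higher level.

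**Figure D3:**
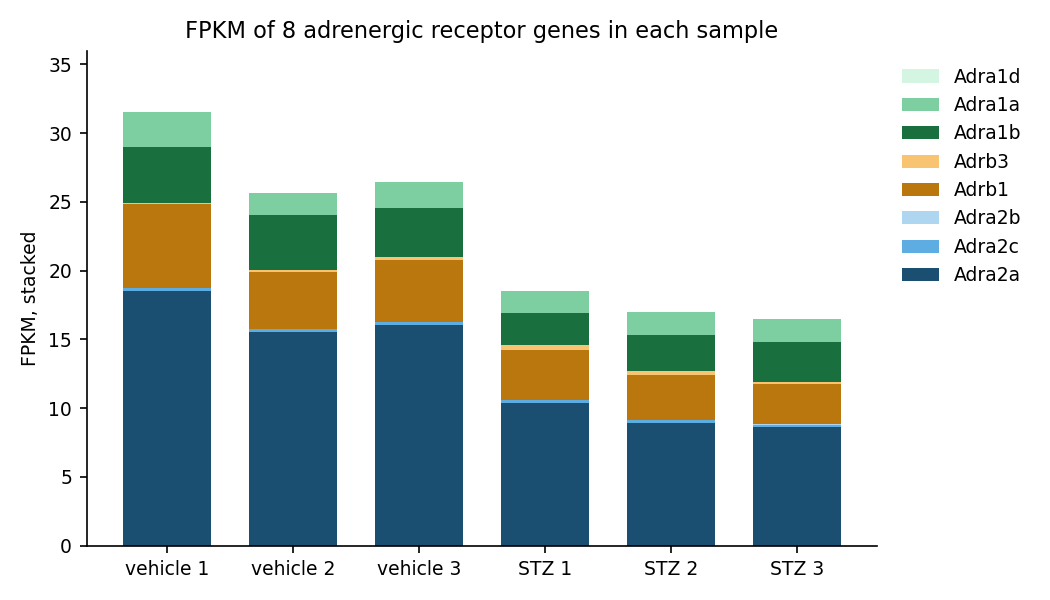
FPKM of the 8 members (vertical axis, stacked from 0) in each of the 3 vehicle and 3 STZ samples. The total stands between 25.7 and 31.5 in the vehicle samples and between 16.5 and 18.5 in the STZ samples, and Adra2a is the largest part of every bar.

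Members were also compared by their pattern over the samples. As a measure of likeness, the log2 CPM of a gene was taken relative to its own mean in each sample, and the absolute difference between genes was averaged over the 6 samples. Adra2a and Adrb1 were the closest pair of members, at 0.144, and Adrb3 was at least 0.709 from every other tested member. Adrb3 had only 7 counts in vehicle replicate 1 and an SD of 1.23 in log2 CPM over the vehicle samples. The part of low counts in its distance was not tested. Among 16248 other genes with a mean of at least 1 CPM, those closest to Adra2a were P2ry2, a receptor of extracellular ATP and UTP (0.0618), and Fndc5, the precursor of irisin (0.0772). For Adra1b they were Pnmal1 (0.0463) and Padi2, a peptidylarginine deiminase (0.0495), and for Adrb1 Plekhd1 (0.0469) and Smyd1 (0.0490). For Adra1a they were the Notch ligand Jag1 (0.0328) and Plxdc2 (0.0411), and for Adra2c Aff3 (0.0306) and Efemp2 (0.0361). With 6 samples and this many genes, close matches are found for any gene, and nothing about shared function or control follows.

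Outside the receptors, 105 genes of noradrenaline handling, G protein and cAMP signaling, responses to it and other amine receptors were listed, and 85 had a count in every sample. EdgeR called 0 of the 85, with 15 (17.6%) at an unadjusted p under 0.05, where 11.3% of all genes were. DESeq2 called 3 (3.53%), Gnal, Rgs4 and Htr6, where it called 1.05% of all genes. The median log2 fold change of the 85 was 0.03, against 0.01 over all genes, and 16 genes (18.8%) did not overlap between the groups, where 18.5% of all genes did not.

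Th and Dbh make noradrenaline, Pnmt turns it into adrenaline and Slc6a2 takes it back into neurons. Each had 0 counts in at least 1 sample and was not tested, Th in vehicle replicate 1 alone. The breakdown enzyme Maob was abundant, at 76.1 FPKM, and close between the groups, at -0.08 (standard error 0.0844) on the log2 scale. Slc29a4, the plasma membrane monoamine transporter, was the highest uptake gene at 15.9 FPKM, with -0.52 ± 0.336 (SE) as the log2 fold change (edgeR adjusted p = 0.585). It had 30.0, 71.7 and 64.4 normalized CPM in vehicle replicates 1, 2 and 3 and 45.2, 26.0 and 44.7 in the STZ replicates. Like the summed choroid plexus and ependymal markers, at 4239, 11987 and 12764 FPKM and at 8440, 6878 and 11663 FPKM, it was lowest in vehicle replicate 1 among the vehicle samples and in STZ replicate 2 among the STZ samples, and their part in its value was not tested. Ddc, the decarboxylase that makes dopamine, had the largest positive value, 0.99 (standard error 0.425, edgeR adjusted p = 0.442).

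The G protein alpha subunits divided by level. Gnas, the Gs subunit, led with 377 FPKM and had -0.26 ± 0.155 (SE) as the log2 fold change. Gnai1, a Gi subunit, had 30.5 ± 2.55 normalized CPM in vehicle and 23.1 ± 3.40 in STZ samples (SD, n = 3), without overlap and with -0.40 as the log2 fold change (adjusted p = 0.345 in edgeR and 0.164 in DESeq2). Gnal, a relative of Gnas named for the olfactory system, had the opposite sign, with means of 4.05 ± 0.824 and 7.04 ± 1.43 (SD, n = 3) and 0.80 as the log2 fold change (adjusted p = 0.314 in edgeR, 0.0421 in DESeq2). Of the 11 subunits 1 was higher and 2 lower at an unadjusted edgeR p under 0.05. Over all genes 11.3% had such a p in either direction and 5.65% as lower.

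Among the 10 adenylyl cyclases, which make cAMP and are the point where Gs and Gi meet, Adcy2 was the highest at 32.8 FPKM and had the lowest fold change. It had 176 ± 17.5 normalized CPM in vehicle and 120 ± 8.11 in STZ samples (SD, n = 3), without overlap. On the log2 scale STZ over vehicle was -0.55 ± 0.0938 (SE). The adjusted p was 0.169 in edgeR and 0.000866 in DESeq2, where the fold stayed under the threshold of 1.5. Adcy4 had the largest positive value, 1.004 (standard error 0.459, edgeR adjusted p = 0.467), from 1.37 ± 0.886 and 2.76 ± 0.876 normalized CPM (SD, n = 3). The list had 5 positive and 5 negative values, 2 of the negative ones at an unadjusted edgeR p under 0.05. Over all genes 5.65% were lower at such a p.

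Lists further downstream were read against the 11.3% of all genes at an unadjusted edgeR p under 0.05. The Gq arm of phospholipase C beta and IP3 receptor genes had 0 of 7 genes under that p and a median log2 fold change of -0.03. Plcb3, its highest member at 14.8 FPKM, was at -0.12 (standard error 0.102) and Itpr2 at -0.15 (standard error 0.0814). The cAMP effectors, with Prkar1a highest at 103 FPKM, had a median of -0.01 and 1 of 9 under that p, Prkar2b, a regulatory subunit of protein kinase A, at 0.64 (standard error 0.199, edgeR adjusted p = 0.336). The cAMP phosphodiesterases had 0 of 10 under that p, with Pde4b, the highest at 39.3 FPKM, at -0.03 (standard error 0.0882).

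Of the genes that end receptor signaling, 8 of 10 had a positive sign, with a median of 0.10. Grk3, a receptor kinase and the highest at 23.9 FPKM, was at 0.05 (standard error 0.0864). Rgs4, which speeds the switching off of Gi and Gq, had means of 11.7 ± 3.24 and 19.7 ± 4.39 normalized CPM (SD, n = 3) and 0.76 as the log2 fold change (adjusted p = 0.328 in edgeR and 0.0413 in DESeq2). Among 8 genes known to respond to cAMP, 3 had an unadjusted edgeR p under 0.05, with both signs, against 11.3% of all genes. Per1, a circadian clock gene named here after its values were seen, had 13.8 ± 0.921 normalized CPM in vehicle and 19.4 ± 2.01 in STZ samples (SD, n = 3), without overlap, at 0.50 on the log2 scale (adjusted p = 0.261 in edgeR and 0.0338 in DESeq2, under the fold threshold). Fos was at 0.58 (standard error 0.217, edgeR adjusted p = 0.398), and Ppp1r3c, which targets protein phosphatase 1 to glycogen, at -0.36 (standard error 0.0899, edgeR adjusted p = 0.287), with 163 ± 7.52 and 127 ± 13.0 normalized CPM (SD, n = 3).

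**Figure D4:**
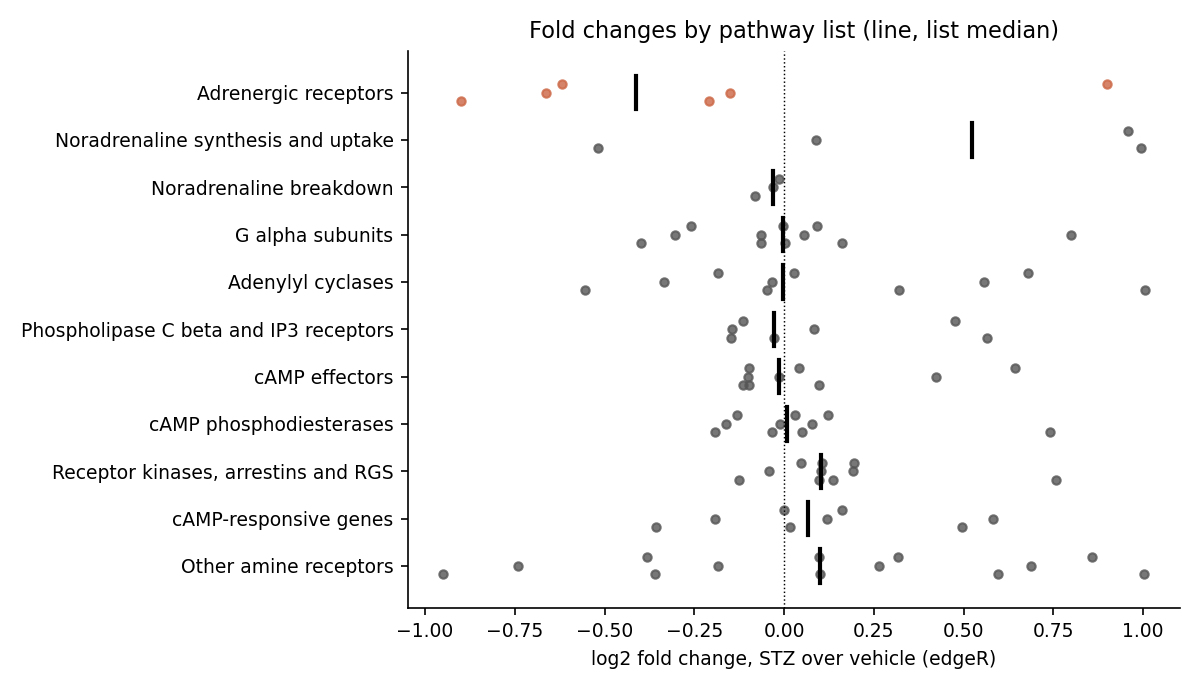
Log2 fold change, STZ over vehicle (horizontal axis, edgeR), of each tested gene of the adrenergic receptors (orange) and of 10 lists around them (gray), with the list median as a line. The medians lie between -0.03 and 0.10 for 9 of the 10 lists, at 0.52 for noradrenaline synthesis and uptake with 4 genes tested, and at -0.41 for the receptors.

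The amine receptors outside the family are the closest genes for comparison. Of the 13 tested, 8 had a positive and 5 a negative log2 fold change, with a median of 0.10. Without overlap between the groups 2 were lower and 1 higher, where 9.85% and 8.64% of all tested genes were. Htr6, a serotonin receptor coupled to Gs, had 11.96 ± 1.53 normalized CPM in vehicle and 6.19 ± 1.66 in STZ samples (SD, n = 3), with -0.95 ± 0.225 (SE) as the log2 fold change (adjusted p = 0.265 in edgeR and 0.00382 in DESeq2). Hrh1, the Gq-coupled histamine receptor that was the most abundant of all, had 151 ± 8.67 and 116 ± 17.2 (SD, n = 3), with -0.38 ± 0.111 (SE) as the log2 fold change (edgeR adjusted p = 0.313), also without overlap. Drd1, at 0.0581 FPKM, had the largest positive value, 1.001 (standard error 0.641). A difference between the adrenergic and the other amine receptors was not tested.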

How the data were processed

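Per the labels the libraries were made with a SMART-Seq kit, while the study's methods name both TruSeq and SMART-Seq kits. Reads were trimmed with Trimmomatic 0.38, aligned to mm10 with HISAT2 2.1.0 and quantified with StringTie 2.1.3b, as listed in the submitters' processing notes. The deposited read counts are whole numbers per gene without normalization. The FPKM and TPM values were computed by the authors per transcript length and library. Strand-specific counting is not stated in the sources used here.

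Every gene without a 0 in any sample, the filter of the study's methods, was tested with edgeR 4.0.16 (R 4.3.3; TMM, quasi-likelihood test, two-sided, group as the only factor) with Benjamini-Hochberg adjustment over all 22337 genes. Called means more than 1.5-fold with adjusted p below 0.05. DESeq2 1.42.0 and limma 3.58.1 served as alternatives. Normalized CPM are counts divided by TMM-scaled library size. For likeness, log2 CPM had 2 as prior count, and nearest genes were sought only for members with at least 10 counts in every sample. Fits were tested on simulated data. No library duplicated another within sampling noise, and depth floors cover counting error only. Positions and promoters are from RefSeq for GRCm38, and transcript lengths from GENCODE M21.

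The members and lists were chosen with earlier results of these data known. From each list the text names called genes, the highest in FPKM and the largest changes in each direction, except 1 gene that is not reported here. Unadjusted p-values under 0.05 are given as counts. The alternatives were listed in advance, except those within DESeq2, chosen after seeing the data.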

Additional observations from a re-analysis of the deposited data

How the results depend on the processing

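Over all genes, edgeR called 5, DESeq2 234, limma on log2(TPM + 1) 0, limma on log2(TPM + 0.1) 0, and edgeR with the replicate number as a block 0. Of the adrenergic receptors edgeR called 0 in every setting tried and DESeq2 3, with 3 members at an unadjusted p under 0.05 in each fit with all samples. Of the 85 pathway genes edgeR called 0 and DESeq2 3. Other normalization, filters and dropping the fold threshold kept these counts within 1.5 times. With each sample left out, edgeR called 0 to 1 genes in all, 0 members and 0 pathway genes. Within DESeq2, leaving out each sample gave 1 to 3 members: Adra2a every time, and alone without vehicle replicate 1, STZ replicate 1 or STZ replicate 2. With the replicate block DESeq2 called 2, Adra2a and Adrb1. As the family was chosen with this comparison known, nothing is read from these calls of members. The replicate numbers were not taken to pair the pools. Deviations of same-numbered samples had correlations of -0.10, -0.16 and -0.18 across genes, with a mean of 0.07 for different numbers. As deviations from means of 3 samples, these values depend on each other and cannot decide whether same-numbered pools share a batch. The order of levels kept all 8 ranks in TPM, 6 to 8 with a sample left out, and 5 with counts per kb of the longest transcript. The sign of every tested member held in each setting with all samples, and that of Adra1a turned without vehicle replicate 1. For Adra1d, Adra2b, Adra2c and Adrb3, depth limits what can be seen.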
